A study of Mus musculus with 4 samples.

Results

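The genes described here are 9 members of the TNF receptor superfamily that are mostly known as costimulatory receptors of lymphocytes: Tnfrsf4 (OX40), Tnfrsf9 (4-1BB), Tnfrsf18 (GITR), Tnfrsf8 (CD30), Tnfrsf14 (HVEM), Tnfrsf11a (RANK), Tnfrsf13b (TACI), Cd27 and Cd40. They were chosen by name, with earlier results of these data known. All 9 were found among the 41388 genes of the count tables. Expression was measured by RNA-seq of ribosome-depleted total RNA in Mnk3, a mouse line of ILC3 character (ILC3 are group 3 innate lymphoid cells, which live in mucosal and lymphoid tissue and are known as a source of IL-22). The control group was 2 libraries of untreated Mnk3 cells. The stimulated group was 2 libraries of the same line given IL-1b and IL-23, each at 10 ng/ml, for about 16 h. Library 1 of each group is the one titled rep1, and library 2 is the one whose title carries no number. The labels give no genetic change in either group. Separate cultures are not stated for the libraries, and p-values therefore cover only the differences among these 4 libraries, which may be technical. As a cell line, Mnk3 holds no neighbouring tissue cells.

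TNF receptors are membrane proteins that are brought together by trimeric ligands of the TNF superfamily. The receptors described here have no death domain. Their cytoplasmic tails bind TRAF adaptors, which pass the signal to the classical and alternative NF-kB pathways and to MAP kinases. On T cells, OX40, 4-1BB, GITR and CD27 prolong activation and survival, while CD40 and TACI are best known on B cells and RANK on osteoclast precursors and dendritic cells. Lymphoid tissue inducer cells, a branch of the ILC3 lineage, are known to carry RANK and its ligand.

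Of the 9 receptor genes, 2 rose after stimulation, Tnfrsf9 and Tnfrsf8, and 2 fell, Tnfrsf11a and Tnfrsf18. Another 4 did not pass the test (Cd40, Tnfrsf4, Cd27 and Tnfrsf14), and Tnfrsf13b had too few counts to be tested. Passing means an adjusted p under 0.05 in edgeR's quasi-likelihood test, adjusted over all 13838 genes tested. In that test 35.8% of all genes passed, 17.5% higher and 18.3% lower, and the 4 of 8 tested receptors that passed are to be read against that share. Tnfrsf8 passed the low-count filter through its stimulated libraries only, so the direction of its call was largely set beforehand. The median log2 change was 0.32 over the 8 tested receptors and -0.02 over all tested genes. The control and stimulated libraries did not overlap in 7 of the 8, against 70.7% of all tested genes. The calls of Tnfrsf18 and Cd40 moved with the setting, so that the number of receptors lower was 1 or 2 and the number higher 2 or 3.

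Summed counts were 23047723 to 29078765 per library. Levels are TMM-scaled CPM, and levels of different genes are compared only as CPM per kb of the exon length listed in the tables. Each change is given on the log2 scale, positive where stimulated libraries were higher, ± SE, which was derived from the change and its F statistic. The ILC3 markers were present in all libraries, with a summed level of 3027 to 3307 CPM in controls and 1216 to 1293 CPM in stimulated libraries over 10 genes (all tested, 1 higher, 5 lower). For all genes tested the shares were 17.5% higher and 18.3% lower. Among markers of other cells, the 8 T cell genes summed to 127 to 136 and 37.4 to 42.6 CPM (6 tested, 0 higher, 2 lower, Cd8b1 at 0 counts in all libraries). Lat alone made 102 and 116 CPM of this sum in controls 1 and 2, where Cd3e stood at 1.06 and 0.717 CPM. The 8 B cell genes summed to 38.4 to 62.7 and 8.27 to 15.6 CPM (4 tested, 0 higher, 2 lower), of which Ighm alone made 34.6 and 58.4 CPM in controls 1 and 2. The 8 myeloid and dendritic cell genes summed to 2.63 to 4.68 and 4.16 to 10.0 CPM (4 tested, 1 higher, 0 lower), with Adgre1 alone at 8.19 CPM in stimulated 2 and Lyz2 and Cd14 at 0 counts in all libraries. The 8 stromal genes summed to 7.63 to 8.71 and 32.8 to 85.7 CPM (3 tested, 1 higher, 1 lower), of which Lum alone made 84.1 and 30.6 CPM in stimulated 1 and 2 while Col3a1 fell. The 4 type 2 ILC genes summed to 0.478 to 0.796 and 1.23 to 1.31 CPM, and only 1 of them had enough counts to be tested and did not pass. The 5 NK and type 1 ILC genes summed to 318 to 375 and 118 to 157 CPM (5 tested, 0 higher, 2 lower). The part of these shifts in the receptor results was not tested. In bulk RNA, fewer cells that express a gene and less RNA per cell cannot be told apart.

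**Figure D1:**
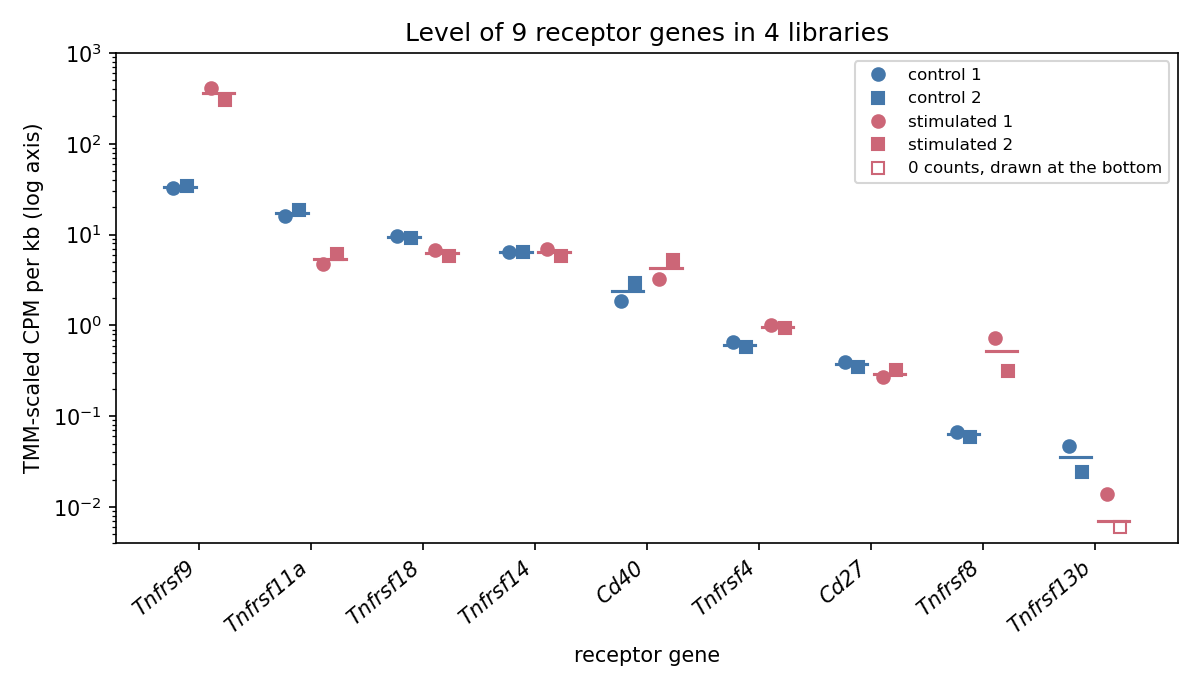
Level of the 9 receptor genes in each library, in TMM-scaled CPM per kb on a log axis, with genes ordered by their control mean; circles are libraries numbered 1, squares those numbered 2 and lines group means. Tnfrsf9 stood highest in both groups and its stimulated libraries reached 411 and 306 CPM per kb, while Tnfrsf13b had 0 counts in stimulated 2 (open square, drawn at the bottom).

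Tnfrsf9, which encodes 4-1BB, an activation-induced receptor of T cells and NK cells, showed the largest rise of the 9 genes. It had 2710 and 2716 counts in controls 1 and 2, and 28270 and 19051 counts in stimulated 1 and 2. As levels these were 89.9 and 92.8 CPM against 1119 and 834 CPM. The controls nearly coincided, the stimulated libraries differed by more, and the groups lay far apart. The change was 3.42 ± 0.20, a 10.7-fold rise (edgeR adjusted p = 0.000229), and 147 of the 13838 tested genes had a higher fold change. In the coordinates of the tables, Tnfrsf9 occupies 150914562 to 150946102 of chromosome 4 (plus strand). Its span runs through the opposite-strand gene Camta1, but their listed exons share 0 bases.

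RefSeq gives 2 start sites for Tnfrsf9, at 150920155 and 150927999 of GRCm38.p6. The promoter sequences of Tnfrsf9 and Tnfrsf8, the genes that rose, and of Tnfrsf11a, the gene with the clearest fall, are shown because the stimulating cytokines act through NF-kB, AP-1 and STAT factors, whose motifs were searched in each window. A window runs from 250 bases before to 50 bases after a start, and 8 of the 9 genes have one (9 windows). No Tnfrsf9 window lies at 150914562, where its listed span begins, so that end was not searched. The motifs were the 10-base kB consensus, AP-1 (TGANTCA) and STAT (TTCNNNGAA), on both strands, and matches are in capitals in the sequences 5′ to 3′ along the gene's strand. Bases within a listed exon are left out, and in the second Tnfrsf9 window the matches that fall within the exon of another transcript are given as short sites with 5 bases on either side.
Tnfrsf9 first start, chr4:150919905-150920154, plus strand: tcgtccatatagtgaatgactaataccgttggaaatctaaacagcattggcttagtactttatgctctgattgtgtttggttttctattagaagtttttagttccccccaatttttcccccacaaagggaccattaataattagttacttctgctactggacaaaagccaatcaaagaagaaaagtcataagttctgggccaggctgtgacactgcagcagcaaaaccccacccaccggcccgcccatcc
Tnfrsf9 second start, chr4:150927749-150927917, plus strand: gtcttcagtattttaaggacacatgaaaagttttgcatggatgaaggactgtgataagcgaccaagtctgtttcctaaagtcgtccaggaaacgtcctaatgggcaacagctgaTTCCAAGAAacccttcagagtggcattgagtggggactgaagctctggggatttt
Tnfrsf9 second start, kB site, chr4:150927951-150927971, plus strand: cagctGGGGATTTCCCaggag
Tnfrsf9 second start, AP-1 site, chr4:150927979-150927995, plus strand: tcagtTGAGTCAcaggt
Tnfrsf8, chr4:145315165-145315414, minus strand: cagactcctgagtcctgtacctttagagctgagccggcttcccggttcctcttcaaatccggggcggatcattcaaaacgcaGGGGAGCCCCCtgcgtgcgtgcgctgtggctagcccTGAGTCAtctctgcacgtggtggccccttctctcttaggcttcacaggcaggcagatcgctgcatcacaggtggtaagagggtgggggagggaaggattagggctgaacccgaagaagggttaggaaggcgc
Tnfrsf11a, chr1:105780473-105780717, plus strand: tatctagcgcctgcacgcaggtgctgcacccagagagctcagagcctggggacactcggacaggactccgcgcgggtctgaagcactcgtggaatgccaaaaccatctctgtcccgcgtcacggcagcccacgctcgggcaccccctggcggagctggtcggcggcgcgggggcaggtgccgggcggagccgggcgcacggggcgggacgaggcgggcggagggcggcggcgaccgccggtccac

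The second Tnfrsf9 window held 2 overlapping kB matches at -43 to -33, an AP-1 match at -15 to -9 and a STAT match at -136 to -128, counted from the start site. The first Tnfrsf9 window held none of the 3 motifs. The Tnfrsf8 window held 2 overlapping kB matches, which begin at -168 and -167, and an AP-1 match that begins at -132. In the Tnfrsf18 window a STAT match begins at -99, and the windows of Tnfrsf11a, Tnfrsf14, Tnfrsf4, Cd27 and Tnfrsf13b held no match. The Tnfrsf18 match lies past 156026164, where the listed span of that gene begins. The Tnfrsf14 window, with its start at 154928077, does not reach 154928563, where the listed span begins on the minus strand, so that end was not searched. Of all 32851 promoter windows of the same length, 8.46% held the kB consensus, 7.81% AP-1 and 8.3% STAT. A match is a stretch of letters and not a measured binding site, and the counts do not show which start was used.

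Tnfrsf8, which encodes CD30, a receptor of activated lymphocytes, rose from a very low level. It had 7 and 6 counts in the controls and 64 and 25 counts in stimulated 1 and 2, or 0.232 and 0.205 against 2.53 and 1.09 CPM. The stimulated libraries differed from each other by more than the controls did, and both stood above them. The control counts lay under the low-count filter, so a fall of this gene could hardly have been called. The change was 3.03 ± 0.55 (8.18-fold, edgeR adjusted p = 0.00657). Without stimulated 1, the library with the higher value, it was 2.30 (edgeR adjusted p = 0.0262). Even after the rise Tnfrsf8 was at 0.524 ± 0.294 CPM per kb (SD, n = 2), so its transcript stayed scarce. The gene occupies 145267137 to 145315164 of chromosome 4 (minus strand), 20267 bases from Tnfrsf1b, the gene of TNF receptor 2.

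Tnfrsf11a, which encodes RANK, the receptor of the osteoclast and lymphoid organ cytokine RANKL, fell. Controls 1 and 2 had 2916 and 3296 counts, against 711 and 847 in stimulated 1 and 2. As levels these were 96.8 and 113 CPM against 28.1 and 37.1 CPM. The groups were well separated, with a change of -1.68 ± 0.18, or 3.21-fold lower (edgeR adjusted p = 0.00102). The gene occupies 105780718 to 105847981 of chromosome 1 (plus strand). In both groups its level per length stood below that of the RANKL gene Tnfsf11, which was 4.97 and 5.45 times as high in controls 1 and 2 and 9.19 and 6.79 times as high in stimulated 1 and 2.

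Tnfrsf18 and Tnfrsf4 are neighbours on chromosome 4, 9552 bases apart on the plus strand, and encode GITR and OX40, a pair of receptors that regulatory and activated T cells share. Tnfrsf18 (156026164 to 156028895) had 442 and 412 control counts and 260 and 203 stimulated counts. This was 14.7 and 14.1 against 10.3 and 8.89 CPM, with no overlap. The change was small, -0.58 ± 0.19 (edgeR adjusted p = 0.0497), and the call ended when any 1 of the 4 libraries was left out: the edgeR adjusted p was 0.166 without control 1, 0.127 without control 2, 0.0929 without stimulated 1 and 0.257 without stimulated 2. It also ended in DESeq2 (0.0564), with DESeq2 size factors (0.0567) and without robust estimation (0.0522). The opposite-strand gene Gm16008 shares 414 bases (27.2%) of the Tnfrsf18 exons and had 28 and 8 control counts and 12 and 11 stimulated counts, far fewer than Tnfrsf18. The strand setting of the counting is not given here, so reads of this overlap cannot be told apart by gene.

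Tnfrsf4 (156013843 to 156016612) was scarce in all libraries, with 27 and 23 control counts and 35 and 29 stimulated counts. These were 0.896 and 0.786 against 1.39 and 1.27 CPM. The groups did not overlap, but the change of 0.66 ± 0.34 did not pass (edgeR adjusted p = 0.174). Per length, Tnfrsf18 stood 14.7 and 16.0 times above Tnfrsf4 in controls 1 and 2 and 6.65 and 6.27 times above it in stimulated 1 and 2, so GITR transcript outweighed OX40 transcript in every library.

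Cd40, the receptor through which helper T cells activate B cells and dendritic cells, had 189 and 290 counts in controls 1 and 2 and 280 and 407 counts in stimulated 1 and 2. In CPM the controls were at 6.27 and 9.91 and the stimulated libraries at 11.1 and 17.8. Each group spread widely, and in each the library numbered 2 was the higher, so that control 2 came close to stimulated 1. The change of 0.84 ± 0.32 did not pass (edgeR adjusted p = 0.0849). It was past the threshold in DESeq2 (0.0441), with no low-count filter (0.0025), without control 2 (0.0271) and without stimulated 1 (0.0269), so its call depended on the setting. Cd40 occupies 165055627 to 165072948 of chromosome 2 (plus strand).

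Tnfrsf14, which encodes HVEM, a receptor shared by the TNF ligand LIGHT and the immunoglobulin family proteins BTLA and CD160, had 227 and 221 control counts and 205 and 153 stimulated counts. The levels were 7.53 and 7.55 against 8.12 and 6.70 CPM, with stimulated 1 above and stimulated 2 below both controls. The change was -0.03 ± 0.22 (edgeR adjusted p = 0.943). Tnfrsf14 occupies 154922210 to 154928563 of chromosome 4 (minus strand).

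Cd27, a receptor of naive and memory lymphocytes, and Tnfrsf13b, which encodes TACI, the B cell receptor of BAFF and APRIL, were near the lower end. Cd27 (chromosome 6, 125232622 to 125237010, minus strand) had 28 and 24 control counts and 16 and 17 stimulated counts, a change of -0.35 ± 0.38 that did not pass (edgeR adjusted p = 0.513). Its span lies within that of the opposite-strand gene Vamp1, with 0 shared exon bases. Tnfrsf13b (chromosome 11, 61126755 to 61149372, plus strand) had 4 and 2 control counts and 1 and 0 stimulated counts, too few to test. The ratio of control to stimulated counts, scaled for library size, was 4.86 with an exact 95% counting interval of 0.589 to 223, so no difference was detectable at this depth. Such intervals, and the limits for genes at 0 counts, cover counting error only.

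**Figure D2:**
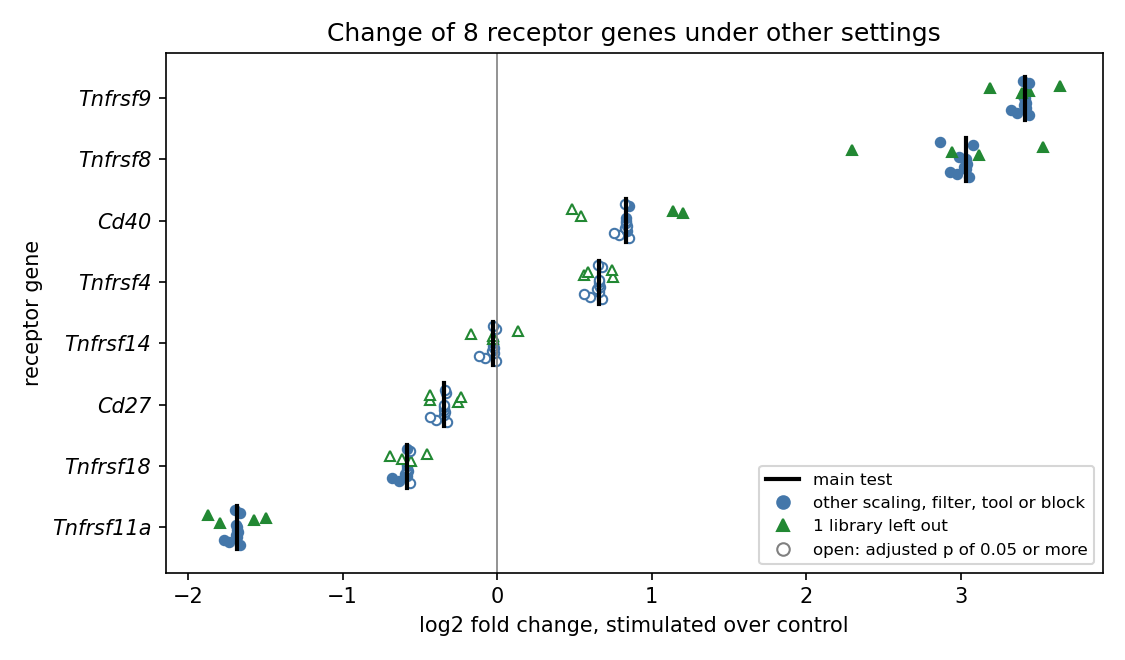
Log2 fold change of the 8 tested receptor genes in the main test (black bars) and under the other settings, with filled symbols past an adjusted p of 0.05 in that setting. Tnfrsf9, Tnfrsf8 and Tnfrsf11a stayed filled throughout, whereas the triangles of Tnfrsf18, for fits with 1 library left out, are all open.

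Tnfrsf9 had the highest level per length of the 9 genes in both groups, and the order below it changed. In controls Tnfrsf9 came first at 33.6 ± 0.741 CPM per kb, followed by Tnfrsf11a at 17.5 ± 1.87, Tnfrsf18 at 9.43 ± 0.275, Tnfrsf14 at 6.51 ± 0.0103 and Cd40 at 2.37 ± 0.755 (SD, n = 2). Below 1 CPM per kb were Tnfrsf4 at 0.616 ± 0.0571, Cd27 at 0.376 ± 0.0332, Tnfrsf8 at 0.0632 ± 0.00558 and Tnfrsf13b at 0.0354 ± 0.0161. No control neighbours in this order overlapped between libraries. After stimulation Tnfrsf9 stood at 359 ± 74.1 CPM per kb, and Tnfrsf14 (6.40 ± 0.866), Tnfrsf18 (6.29 ± 0.653), Tnfrsf11a (5.45 ± 1.05) and Cd40 (4.24 ± 1.40) came far below it and close to each other, each overlapping the next. Tnfrsf4 had 0.973 ± 0.0602 CPM per kb and lay apart from its neighbours, while Tnfrsf8 (0.316 and 0.733 CPM per kb) overlapped Cd27 (0.272 and 0.320).

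Tnfrsf9 held 47.7% ± 0.970 of the summed CPM per kb of the 9 genes in controls and 93.6% ± 1.40 in stimulated libraries (SD, n = 2). Tnfrsf11a went from 24.8% ± 1.60 to 1.48% ± 0.559 of the sum, and Tnfrsf18 from 13.4% ± 0.960 to 1.66% ± 0.148. The sum itself was 68.3 and 72.6 CPM per kb in controls and 435 and 331 in stimulated libraries, so a gene can lose share without a fall of its own. Tnfrsf14 did so, from 9.25% ± 0.378 to 1.68% ± 0.0962, at a nearly level CPM. Among all tested genes ordered by mean CPM per kb, Tnfrsf9 moved from place 2148 to place 94.

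**Figure D3:**
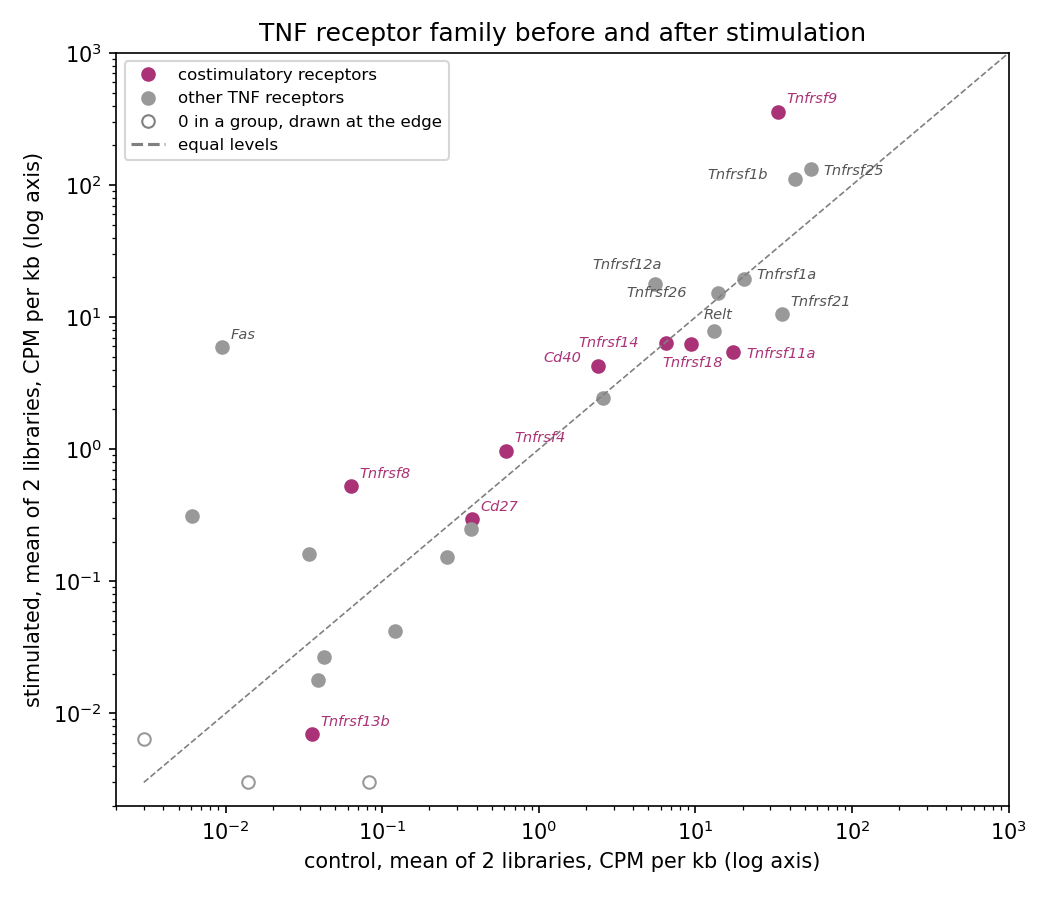
Mean level of 28 TNF receptor genes in control (x axis) and stimulated (y axis) libraries, in CPM per kb on log axes, with the 9 receptors described here in purple. Tnfrsf9 lies above all others on the y axis at 359 CPM per kb and well above the dashed line of equal levels, and Tnfrsf11a lies below that line.

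Set among 28 TNF receptor genes, the 9 plus 19 others, Tnfrsf9 ranked 4 by mean control level per length and 1 by mean stimulated level. The gene at place 3 in controls, Tnfrsf21, had 43.7 and 27.8 CPM per kb, so it overlapped Tnfrsf9 at 33.0 and 34.1. The share of Tnfrsf9 in the summed level of the family was 12.9% ± 0.465 in controls and 50.5% ± 4.08 in stimulated libraries. Tnfrsf25, which encodes DR3, led in controls with 54.6 ± 1.88 CPM per kb and came next to Tnfrsf9 after stimulation with 132 ± 1.92. Of the 19 other receptors 14 were tested, of which 6 rose, 2 fell and 6 did not pass, with a median log2 change of 0.04. Over all tested genes 17.5% were higher and 18.3% lower. The rises included the death receptor gene Fas, with 1 control count and 518 stimulated counts, Tnfrsf25 (1.27 ± 0.13) and Tnfrsf1b (1.38 ± 0.15). Some genes that rose, Fas among them, passed the low-count filter through the stimulated libraries only, which largely set the direction of their calls. The falls were those of Tnfrsf21, which encodes DR6 (-1.76 ± 0.34), and Relt (-0.76 ± 0.15; without stimulated 1 the edgeR adjusted p was 0.0556). Tnfrsf1a, the gene of TNF receptor 1, had -0.09 ± 0.21, and Tnfrsf26 had 0.13 ± 0.18.

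Ligand and partner genes are given beside their receptors, and no difference between a ligand's and a receptor's change was tested. Of 14 genes of the ligand and co-receptor list 9 were tested, and of these 3 rose, 4 fell and 2 did not pass, with a median log2 change of -0.72, where 17.5% of all tested genes were higher and 18.3% lower. The 5 untested genes had at most 15 counts over all libraries. The 3 that rose, Tnfsf4, Tnfsf14 and Cd70, passed the low-count filter through the stimulated libraries only. Tnfsf13, which fell, passed it through the controls only. The direction of these calls was largely set by the filter, so the counts of genes higher and lower are no test of the list. For OX40 the ligand gene Tnfsf4 rose from 7 and 10 to 223 and 508 counts (5.74 ± 0.60, edgeR adjusted p = 0.00151; 4.95 without stimulated 2), while the receptor gene stayed under 2 CPM. For CD27 the ligand gene Cd70 went from 2 and 0 to 11 and 24 counts, a count ratio of 21.6 with an exact 95% counting interval of 5.55 to 185 (edgeR adjusted p = 0.0153). Leaving out control 1 gave a fitted change of 7.26, and leaving out control 2 gave 3.38. Without stimulated 2, the library with 24 counts, Cd70 was not tested and has no value.

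For HVEM the ligand gene Tnfsf14, which encodes LIGHT, rose from 3 and 4 to 59 and 20 counts (3.72 ± 0.67, edgeR adjusted p = 0.00646; 2.85 without stimulated 1). Cd160 had 914 and 451 control counts and 469 and 211 stimulated counts, with overlapping groups, and -0.72 ± 0.47 did not pass (-1.31 without stimulated 1, and past the threshold at 0.0304 with no low-count filter in edgeR). Btla, the other partner, had 1 count in all. For 4-1BB the ligand gene Tnfsf9 had 309 and 236 control counts and 430 and 281 stimulated counts, and its change of 0.68 ± 0.24 did not pass (edgeR adjusted p = 0.0645; 0.0475 in DESeq2, 0.0381 without stimulated 2 and 0.0158 with no low-count filter). Per length, receptor outweighed ligand in this pair by 3.96 and 5.20 times in the controls and by 29.7 and 30.6 times in the stimulated libraries.

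The genes of RANK and of its ligand both fell, with Tnfsf11 at 180 and 229 CPM in controls and 96.6 and 94.1 CPM in stimulated libraries (-1.10 ± 0.16, edgeR adjusted p = 0.00298). Tnfsf13, which encodes APRIL, a ligand of TACI, fell from 22 and 26 to 3 and 4 counts (-2.43 ± 0.52, edgeR adjusted p = 0.0117; 0.0581 without control 2 and 0.0615 without stimulated 1). Tnfsf13b, which encodes BAFF, had 3 and 0 control counts and 1 and 1 stimulated counts. Tnfsf8, the CD30 ligand gene, had 1 and 0 control counts and 3 and 8 stimulated counts (count ratio 13.6, interval 1.97 to 585), and Tnfsf18, the GITR ligand gene, had 4 and 3 against 1 and 4. Cd40lg had 0 counts in every library, where 3 counts, the limit that a count of 0 allows, equal 0.0995 to 0.131 CPM. The lymphotoxin genes Ltb and Lta, whose products signal mainly through other receptors, changed by -3.08 ± 0.36 and -0.76 ± 0.17 (Lta had an edgeR adjusted p of 0.07 without stimulated 1).

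**Figure D4:**
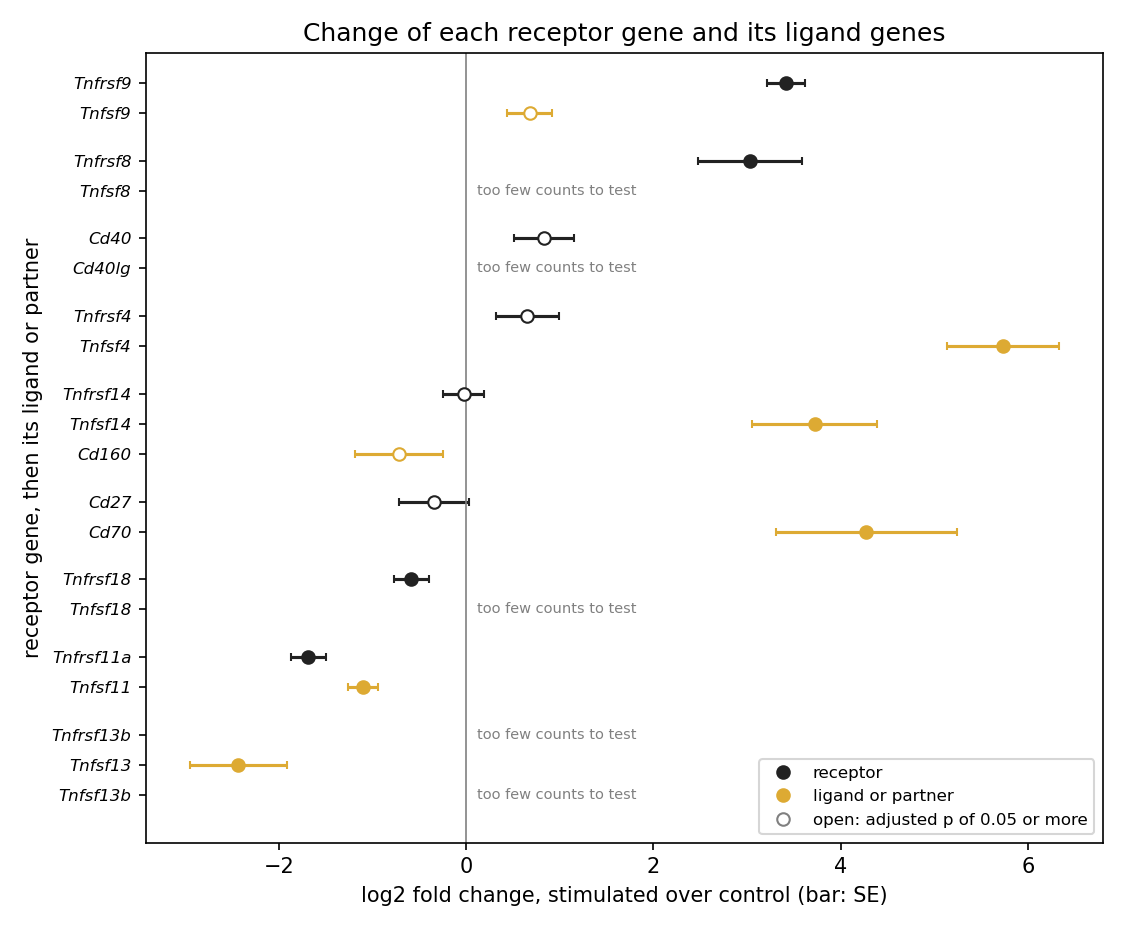
Log2 fold change with SE of each receptor gene (black) and of its ligand or partner genes (yellow), with filled symbols past an adjusted p of 0.05. Tnfsf4, Cd70 and Tnfsf14 lie at 3.72 or higher while Tnfrsf4, Cd27 and Tnfrsf14 lie between -0.35 and 0.66, and Tnfrsf11a and Tnfsf11 both lie below 0.

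The TRAF and NF-kB list holds genes that act downstream of these receptors. All 27 were tested, of which 4 rose, 3 fell and 20 did not pass, with a median log2 change of -0.06, where 35.8% of all tested genes passed. The rises included Nfkbia, the feedback inhibitor IkBa (1.41 ± 0.16), Traf1, an adaptor that 4-1BB is known to bind (1.24 ± 0.17), and Rel (1.15 ± 0.15), a subunit of NF-kB. The falls were those of Traf3ip3 (-0.94 ± 0.16), Map3k14, the NIK kinase of the alternative pathway (-0.68 ± 0.16), and Cyld, a deubiquitinase that restrains NF-kB (-0.56 ± 0.16). The most abundant genes that did not pass were Nfkb2 (-0.43 ± 0.15) and Nfkb1 (-0.24 ± 0.14). Nfkb2 was past the threshold in DESeq2 (0.0226) and in edgeR with upper quartile (0.0408) or total count scaling (0.0361). Smaller calls ended with 1 library left out: Map3k14 had an edgeR adjusted p of 0.0694 without control 1 and 0.103 without stimulated 2, and Cyld 0.136 without control 2, 0.15 without stimulated 1 and 0.065 without stimulated 2.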

How the data were processed

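Each library has 1 deposited table with a raw, whole-number count for each gene. The deposited CPM is that count over the library's summed counts, and the deposited RPKM is that CPM per kb of the listed exon length, both checked on the values. The submitters' processing notes name STAR, Subread and featureCounts; versions, genome build and strand setting: not given in the sources used here. Of 41388 identifiers, 40254 were paired with a symbol by the gene name table used here (Camlg through a synonym), and coordinates are those of the tables.

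Groups were compared with edgeR 4.0.16 (R 4.3.3, limma 3.58.1): filterByExpr, TMM, robust quasi-likelihood test, treatment as the only term, SE as the absolute log2 change over the root of F, Benjamini-Hochberg over 13838 genes. The fit was tested on simulated data. There, 61% of 100 genes given an absolute log2 change of 1 were called, and 100% of 100 genes given 2. False calls, counted among the unchanged genes, numbered 11, where 13769 genes were tested in all. The simulation gave every gene the same spread beyond counting error and no deviations shared by same-numbered libraries. Its false calls therefore do not give the error rate of the real data. Genes with few counts were not among those changed, so recovery at low counts was not tested.

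Named genes were the 9 receptors, the ligand list, tested genes within 50 kb of a receptor, the 3 genes closest to Tnfrsf9 in pattern and, of the other 2 lists, the 3 smallest adjusted p in each direction and the 2 most abundant genes not passing. Members and lists were chosen with earlier results of these data known. Promoter sequences are from RefSeq (GRCm38.p6). Alternatives were other scalings, filters, DESeq2 1.42.0, limma-voom, glmTreat, a stricter threshold, a block and each library left out.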

Additional observations from a re-analysis of the deposited data

How the results depend on the processing

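The calls of Tnfrsf9, Tnfrsf8 and Tnfrsf11a held in all 16 alternatives, with log2 changes of 3.19 to 3.64 for Tnfrsf9 and 2.30 to 3.53 for Tnfrsf8. The number of receptors called lower was 1 with DESeq2, with DESeq2 size factors, without robust estimation, with glmTreat against a log2 fold of 1, at an adjusted p of 0.01 and with any 1 library left out (1 to 1). The number called higher was 3, through Cd40, with DESeq2, with no low-count filter, with the replicate block and without control 2 or stimulated 1 (2 to 3 with 1 library left out).

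Over all genes, 2417 were higher and 2533 lower. These counts were 390 and 527 with glmTreat, 1244 and 1324 at an adjusted p of 0.01, and 1593 to 2001 and 1665 to 2035 with 1 library left out, lowest without stimulated 1. With the replicate block they were 3986 and 4000, and of the named genes Cd40 (edgeR adjusted p = 2.96e-06), Cd160 (1.19e-06), Tnfsf9 (0.000128), Nfkb2 (0.00339), Pank4 (0.0194), Usp22 (0.0277) and Ncapd2 (0.0395) also passed; it changed no other call of a named gene. The libraries share a number in this block, and whether they also share a culture or a preparation is not stated. The deviations of same-numbered libraries had r = 0.551 over 13838 genes, and with 2 pairs no pairing could be shown. Total count scaling moved the median log2 change of all genes from -0.02 to -0.11.

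In the ligand list, 5 were higher with no low-count filter and 1 with a filter of 1 CPM, and 1 was lower with glmTreat, 2 at an adjusted p of 0.01 and 2 to 4 with 1 library left out. In the other TNF receptor list, 2 were higher and 0 lower with glmTreat, 1 was lower at an adjusted p of 0.01 and 1 to 2 with 1 library left out. In the TRAF and NF-kB list, 0 were higher and 0 lower with glmTreat and 11 and 9 with the block, while 5 were lower with upper quartile or total count scaling, 1 at an adjusted p of 0.01 and 1 to 3 with 1 library left out.

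Directions turned only for genes that did not pass. With 1 library left out, log2 changes ranged from -0.17 to 0.13 for Tnfrsf14, -0.42 to 0.21 for Tnfrsf1a and -0.41 to 0.12 for Ncoa5 (highest without stimulated 2, Ncoa5 also at 0.01 without control 1), from -0.062 (without control 1) to 0.35 for Tnfrsf26, from -0.95 to 0.79 (without control 1) for Gm16008 and from -0.14 (without control 2; -0.12 without stimulated 1) to 0.23 for Park7. Park7 had -0.024 with upper quartile and -0.065 with total count scaling. The cause of these shifts was not tested, except that a stricter threshold, glmTreat and fewer libraries call fewer genes by construction. A gene that a filter removes has no value under it. At 1 CPM this was so for Cd27 and, in the ligand list, for the called genes Tnfsf14, Cd70 and Tnfsf13. With 1 library left out, the lone library is assumed to vary like the other group. Depth limits Tnfrsf13b, Tnfrsf4, Cd27 and Tnfrsf8 most, which had at most 35 counts in any control or stimulated library except Tnfrsf8 in stimulated 1 (64).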

Other observations

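Within 50 kb of a receptor, 16 other genes were tested, of which 5 rose, 1 fell and 10 did not pass, where 17.5% of all tested genes were higher and 18.3% lower. Beside Tnfrsf8, Tnfrsf1b, 20267 bases away on the same strand, rose by 1.38 ± 0.15, so both genes of this pair were higher. Beside Tnfrsf9, Park7, which begins 125 bases away on the opposite strand, had 0.03 ± 0.18 on the log2 scale, Camta1 -0.32 ± 0.21 and Errfi1, a feedback inhibitor of EGF receptor signalling 45670 bases away, rose by 2.13 ± 0.38. Beside Tnfrsf4, Sdf4, at a distance of 233 bases, had -0.27 ± 0.14 and B3galt6 rose by 0.99 ± 0.15. Beside Cd27, Mrpl51 rose by 0.82 ± 0.13, and Tapbpl (0.53 ± 0.15) and Vamp1 (-0.66 ± 0.17) passed. Those last calls ended with 1 library left out, Tapbpl in all 4 cases (edgeR adjusted p of 0.182 and 0.0589 without controls 1 and 2, 0.105 and 0.127 without stimulated 1 and 2) and Vamp1 in 3 (0.122 without control 1, 0.13 and 0.0514 without stimulated 1 and 2). The neighbours C1qtnf12, Gm16008, Pank4, Relch, Usp22, Ncapd2 and Ncoa5 did not pass.

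The 3 tested genes whose pattern over the 4 libraries lay closest to that of Tnfrsf9, by Euclidean distance of centred log2 (CPM + 0.5), were Adap1 (0.0936), Socs1 (0.13), an inhibitor of cytokine receptor signalling, and Prkg1 (0.16). Socs1 stood at 24.2 and 22.0 CPM in controls and 281 and 213 CPM in stimulated libraries, and Adap1 at 6.60 and 6.35 against 80.6 and 63.4 CPM. Prkg1 stood at 0.332 and 0.342 CPM in controls and 8.75 and 7.53 CPM in stimulated libraries, a log2 change of 4.58 ± 0.31, larger than that of Tnfrsf9. At such low levels the added 0.5 CPM shrinks the change that enters the distance.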
